A study of Mus musculus with 17 samples.

Results

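RNA sequencing counts were compared between germ cells of the newborn mouse testis at postnatal day 6 and adult germ cells sorted on the Kit receptor. The day 6 libraries (n = 4), which the labels call gonocytes, came from cells positive for TERT and for an OCT4-GFP reporter in day 6 neonates. The adult libraries (n = 5) came from cells with high TERT signal and Kit on their surface. All mice were Tert-Tomato/+ on a mixed B6/J X B6/N background, so the adult cells carry the same reporter allele as the day 6 cells, and the OCT4-GFP reporter is named in the titles but not in the genotype. The members were taken by the sample labels and make up 9 of the 17 libraries of the series. The other 8 are adult Kit-negative cells with high TERT signal, 4 libraries with and 4 without GFRA1, and their levels are given for comparison only. The labels name no animals, so p-values measure the spread between libraries, which may be technical.

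Gonocytes are the germ cells of the fetal and newborn testis. In the first days after birth they resume division, settle on the basement membrane of the tubule and become spermatogonia. Some of these form the stem cell pool, which depends on GDNF from Sertoli cells and on its receptors GFRA1 and RET, and others enter the first wave of differentiation directly. In the adult testis, retinoic acid drives undifferentiated spermatogonia into the Kit-positive state, in which they divide in step, express Stra8 and move toward meiosis. Kit and Stra8 transcripts are present in both groups studied here, and the comparison asks how day 6 germ cells differ from adult differentiating spermatogonia.

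Total counts ran from 6479216 to 8468203 in the day 6 libraries and from 5178352 to 8300165 in the adult Kit-positive libraries. A single entry without a matched symbol took 12% ± 2.2 (SD, n = 4) of the counts at day 6 and 20.8% ± 5.8 (SD, n = 5) in adult Kit-positive cells. Levels are given as CPM, that is, counts scaled to a common library size after TMM adjustment. Where a group held no count of a transcript, the limit on its level was 0.0924 CPM at day 6 and 0.0854 CPM in adult Kit-positive cells, which correspond to 3 counts over the group. Such floors cover counting error only, because amplified reads lacking molecular identifiers do not each stand for a separate molecule. The first principal component of the 9 libraries (68.6% of the variance) separated the 2 groups, and on the second (8.97%) adult Kit-positive library 5 and day 6 library 2 lay apart from the others of their groups. Named genes whose call changed, or whose value moved by over 1.5 times, when both were left out have that value beside them.

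The sorted markers were examined first. Kit and Pou5f1 belong to the gates of the 2 sorts, and Tert, through its reporter, to both gates. The levels of these genes therefore serve as a check of the labels. Kit, the receptor for stem cell factor and the gate of the adult sort, stood at 172, 231, 182 and 166 CPM in the 4 day 6 libraries and at 266, 453, 401, 347 and 296 CPM in the 5 adult Kit-positive libraries. The groups did not overlap. The adult Kit-negative cells had a mean of 27.6 CPM without GFRA1 and 17.6 CPM with it. The log2 fold change of day 6 minus adult Kit-positive cells was -0.91 ± 0.24 (SE), adjusted p = 0.0048. Tested against a change of at least 1.5-fold, the Kit difference did not pass (adjusted p = 0.10). In bulk libraries, fewer cells carrying a transcript and less of it per cell cannot be told apart.

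Stra8, induced by retinoic acid and required for entry into meiosis, had 69.8, 111, 65.1 and 48.1 CPM at day 6 and 182, 329, 198, 262 and 272 CPM in adult Kit-positive cells. All day 6 libraries were below all adult Kit-positive libraries (log2 fold change -1.76 ± 0.21 (SE), adjusted p = 3.2e-06). The mean at day 6 was above the 9.92 CPM of the adult GFRA1-negative and the 23.4 CPM of the adult GFRA1-positive cells (adjusted p = 1.2e-07 and 3.2e-05). Pou5f1, which encodes the pluripotency factor OCT4 and drives the reporter of the day 6 sort, had 23.1, 5.53, 26.3 and 24.1 CPM at day 6 and 1.54, 0.696, 0.908, 0 and 1.04 CPM in adult Kit-positive cells. Day 6 library 2 was the lowest of its group and still above every adult Kit-positive library, and the log2 fold change was 4.52 ± 0.52 (SE), adjusted p = 2.1e-06.

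Gfra1, the GDNF-binding receptor subunit, was at 151, 118, 154 and 157 CPM at day 6 and at 0.84, 7.19, 5.71, 3.24 and 6.58 CPM in adult Kit-positive cells. Every day 6 library was higher, with a log2 fold change of 4.93 ± 0.30 (SE), adjusted p = 7.8e-10. Adult GFRA1-positive cells had 389.9 ± 28.9 CPM (SD, n = 4), above the day 6 cells (adjusted p = 0.00043). The day 6 cells thus carried Kit and Gfra1 transcripts together at levels that no adult group held in both. Whether single cells held both was not measured. Tert, the gene of the telomerase catalytic subunit and of the reporter, had 7.64, 7.94, 8.18 and 5.09 CPM at day 6 and 8.96, 8.7, 8.04, 7.33 and 4.68 CPM in adult Kit-positive cells, and the overlapping groups gave a log2 fold change of -0.07 ± 0.31 (SE), adjusted p = 0.87. Its sign turned without day 6 library 4 (0.07, adjusted p = 0.88).

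**Figure D1:**
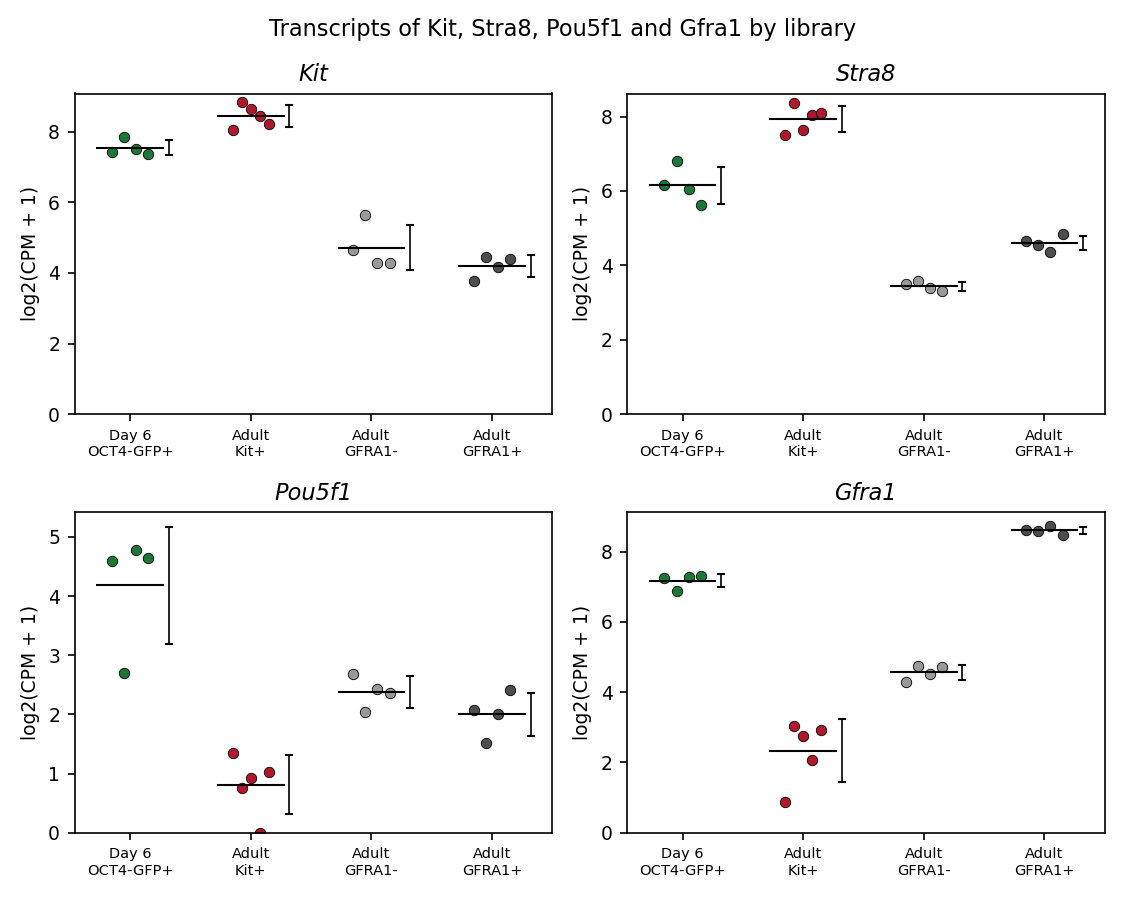
Levels of Kit, Stra8, Pou5f1 and Gfra1 in each library, as log2(CPM + 1) on the vertical axis, for the day 6, adult Kit-positive, adult GFRA1-negative and adult GFRA1-positive groups. Points are libraries, lines are group means and bars beside them are ± 1 SD of the log2 values. The day 6 points lie between the Kit-positive and Kit-negative adult groups for Kit and Stra8, above all adult groups for Pou5f1, and between the 2 GFRA1-sorted groups for Gfra1.

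The identity of the day 6 cells was checked on further germ cell genes. Dppa3, a marker of primordial germ cells, was low in both groups, at 1.99 ± 0.623 CPM (SD, n = 4) at day 6 and 3.95 ± 1.91 CPM (SD, n = 5) in adult Kit-positive cells (log2 fold change -0.98 ± 0.51 (SE), adjusted p = 0.12). Tfap2c, a factor of primordial germ cells, had 2.83 against 0.813 CPM (log2 fold change 1.76 ± 0.40 (SE), adjusted p = 0.0015). The germ cell helicase Ddx4 was detected in every library of both groups, at 267, 189, 297 and 283 CPM at day 6 and 129.7, 100.4, 169, 118 and 143 CPM in adult Kit-positive cells.

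Transcripts of cells outside the 2 sorts were measured next, because the adult testis holds meiotic and postmeiotic cells that a day 6 testis lacks. The summed level of the 15 matched spermatid markers was 56.2 to 72.5 CPM at day 6 and 683 to 2107 CPM in adult Kit-positive cells. It was 159 to 2737 CPM in adult GFRA1-positive and 697 to 2909 CPM in adult GFRA1-negative cells, so the adult Kit-negative sorts carried these transcripts too. Prm1, a sperm protamine, had no count in any day 6 library and 245, 144, 56.5, 91.4 and 173 CPM in the adult Kit-positive libraries, at least 1535-fold lower at day 6. Prm2, the other protamine, had 3 counts over the day 6 libraries and 229 CPM in adult Kit-positive cells, a ratio of 2466 (exact interval at 95% confidence 843.7 to 11963, counting error only). Of 15 spermatid markers tested, none was higher and all 15 were lower (median log2 fold change -6.50). Of 16 spermatocyte markers, none was higher, 15 lower and 1 did not pass (median -3.45), with summed levels of 180.1 to 209 CPM at day 6 and 465 to 1186 CPM in adult Kit-positive cells. The part of such cells or their RNA in other results was not tested.

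The 15 largest falls were taken among called genes whose mean reached 20 CPM in either group and whose groups did not overlap. Besides Prm1 and Prm2 they were Smcp, of the sperm mitochondrial capsule, Adam3, a sperm surface protein, Hils1, a spermatid linker histone, and Cabs1, Prr30, Morc2b, Pabpc2, Spz1, Mroh4, Clec2m, 4933406F09Rik, 1700013G24Rik and 1700008K24Rik. In all of them but Prm2 and Pabpc2 no day 6 library held a count, and their levels in adult Kit-positive cells ran from 30.1 CPM for Spz1 to 142 CPM for Prm1. Pabpc2 had 1 count at day 6 against 114 CPM (ratio 3815, exact interval 684.3 to 150711). Tnp1, a transition protein of condensing spermatids, was at 0.905 against 74.1 CPM, and Akap4, of the sperm tail sheath, at 0.95 against 116 CPM. Ldhc, the lactate dehydrogenase of meiotic and later cells, was at 3.84 against 224 CPM, and Pgk2, their glycolytic kinase, at 1.21 against 48 CPM. Under limma voom 5 of these genes missed the threshold, with adjusted p = 0.082 for Pabpc2, 0.083 for Prm2, 0.058 for Prr30, 0.078 for Smcp and 0.055 for Pgk2. Without day 6 library 4, the sole day 6 library with a Pabpc2 count, the log2 fold change moved from -11.32 to -13.02 for Pabpc2 and from -11.07 to -12.06 for Prm2.

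**Figure D2:**
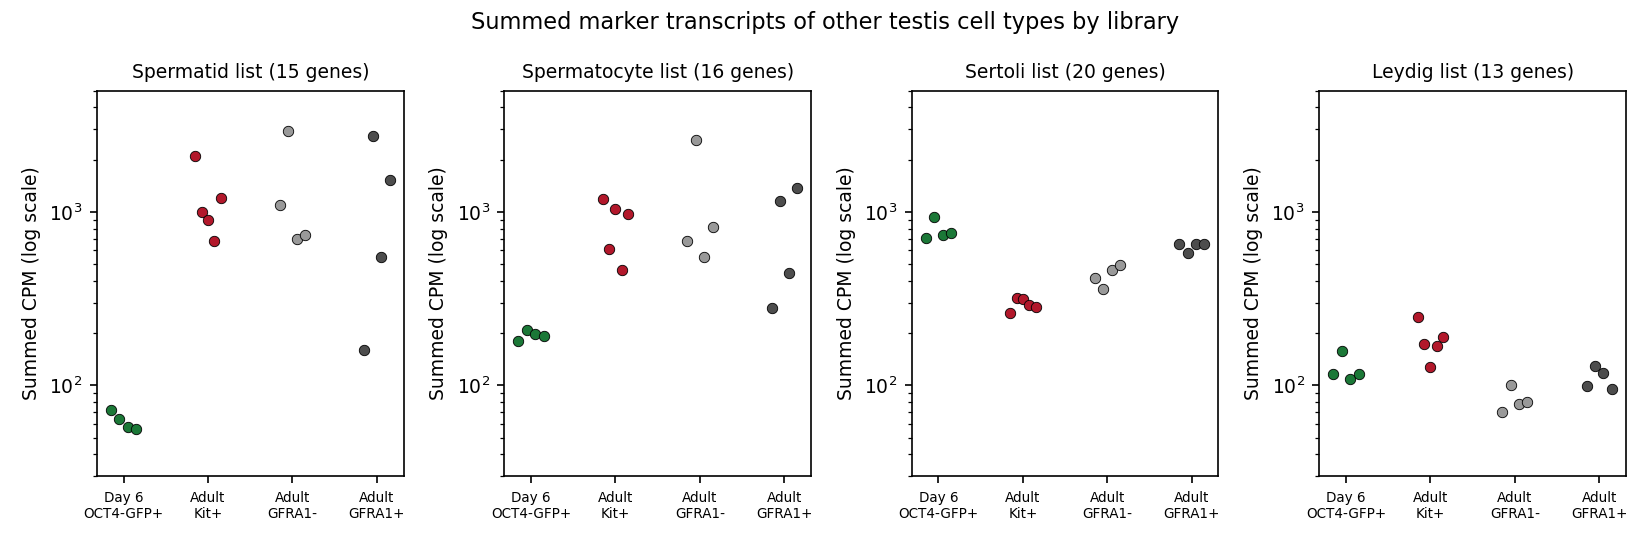
Summed CPM of the spermatid, spermatocyte, Sertoli and Leydig marker lists on a log axis, by library, for the 4 groups. The day 6 points are the lowest for the spermatid and spermatocyte lists (56.2 to 72.5 and 180.1 to 209 CPM) and the highest for the Sertoli list (704 to 930.1 CPM), while the Leydig list spans 109 to 157 CPM at day 6 and 128 to 247 CPM in adult Kit-positive cells.

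Sertoli cell markers were higher at day 6 than in adult Kit-positive cells. Of 17 Sertoli cell markers tested, 15 were higher, none lower and 2 did not pass (median log2 fold change 2.10). The summed level was 704 to 930.1 CPM at day 6 and 259.7 to 317 CPM in adult Kit-positive cells. It was 580 to 655 CPM in adult GFRA1-positive and 359 to 494 CPM in adult GFRA1-negative cells, so the adult Kit-negative sorts carried part of these transcripts too. Single members differed in this. Ctsl was at 175 CPM at day 6 and at 159 and 78.5 CPM in adult GFRA1-positive and GFRA1-negative cells. Aard was at 36.2 CPM at day 6 and at 1.84 and 1.68 CPM in those groups, and Clu at 38.6 CPM and at 4.69 and 2.21 CPM. The defining markers were low: Sox9, the Sertoli cell determinant, had 4.3, 10.7, 4.35 and 5.09 CPM at day 6 and 1.54, 0.464, 1.95, 1.71 and 0.52 CPM in adult Kit-positive cells (log2 fold change 2.30 ± 0.56 (SE), adjusted p = 0.0025). Amh, a hormone of immature Sertoli cells, had 3.75, 6.25, 3.42 and 3.16 CPM at day 6 and at most 0.840 CPM in adult Kit-positive cells, and its log2 fold change of 4.12 (adjusted p = 0.00076) became 5.63 without adult Kit-positive library 1. Day 6 library 2 was the highest of its group for Sox9, for the Sertoli ligand Dhh (4.44, 13.5, 4.35 and 3.44 CPM), for the secreted chaperone Clu (21.2, 84.8, 25 and 23.5 CPM) and for Aard (22.2, 76.2, 21.2 and 25.2 CPM). Without it 11 of the listed markers were higher and none lower, with a median of 1.53, and the difference of Aard was 2.08 rather than 2.74, of Clu 1.61 rather than 2.33 and of Dhh 2.46 rather than 3.11. Without both day 6 library 2 and adult Kit-positive library 5 the list median was 1.40, and the differences of Sox9, Aard and Clu were 1.67, 1.93 and 1.40. The Dhh difference was 4.11 without adult Kit-positive library 5 and the Clu difference 2.92 without adult Kit-positive library 1. Gata4, a factor of testis somatic cells, at 10.6 against 4.57 CPM (log2 fold change 1.20, adjusted p = 0.01), lost its call without day 6 library 2 (0.87, adjusted p = 0.061) and without both libraries (0.73, adjusted p = 0.12, in a range of 0.003 to 0.12 over all alternatives). Wt1, at 4.8 against 5.24 CPM, did not pass (log2 fold change -0.12, adjusted p = 0.87, or -0.99, adjusted p = 0.058, without both libraries). The part of Sertoli cell RNA in the other results was not tested.

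Leydig cell transcripts were lower at day 6 for 6 of 12 markers tested and higher for 1. The steroidogenic enzyme gene Cyp11a1 had no count at day 6 and 15.5, 3.25, 0.519, 5.12 and 2.94 CPM in adult Kit-positive cells, at least 59.2-fold lower, and Hsd3b6, of the same pathway, was at least 174-fold lower. Both were highest in adult Kit-positive library 1, without which the limits were 32.0-fold and 111-fold. Cyp17a1, the next enzyme, was at 0.294 against 10.1 CPM (log2 fold change -5.09, or -5.87 without day 6 library 1), and the Leydig hormone Insl3 at 0.28 against 14 CPM (log2 fold change -5.58, -4.98 without adult Kit-positive library 1 -6.27 without day 6 library 2 and -6.32 without both day 6 library 2 and adult Kit-positive library 5). Hsd3b1, at 1.89 against 7.25 CPM, did not pass (adjusted p = 0.16). Of 11 myoid and fibroblast markers, 4 were higher, 2 lower and 5 did not pass. Of 6 macrophage and leukocyte markers, 2 were higher, 2 lower and 2 did not pass, and of 7 endothelial markers, 3 were higher, none lower and 4 did not pass, and each of these small counts moved by 1 or 2 genes in some alternatives.

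Across all genes the 2 groups were far apart. Of 15451 genes tested, 3369 (21.8%) were higher at day 6 and 4224 (27.3%) lower at an adjusted p under 0.05, 49.1% in either direction. With a difference over 2-fold, 1607 (10.4%) were higher and 2621 (17%) lower. For comparison, 17.3% of genes were higher and 21.9% lower at day 6 than in adult GFRA1-positive cells, and 18.8% higher and 24.9% lower than in adult GFRA1-negative cells. The day 6 libraries lay all above the adult Kit-positive libraries for 2566 genes (16.6%) and all below for 2985 (19.3%). The median log2 fold change of all genes tested was -0.09. Gene lists are described below by how many members were higher or lower and by their median, and these are to be read against those shares, since 49.1% of all genes were called.

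**Figure D3:**
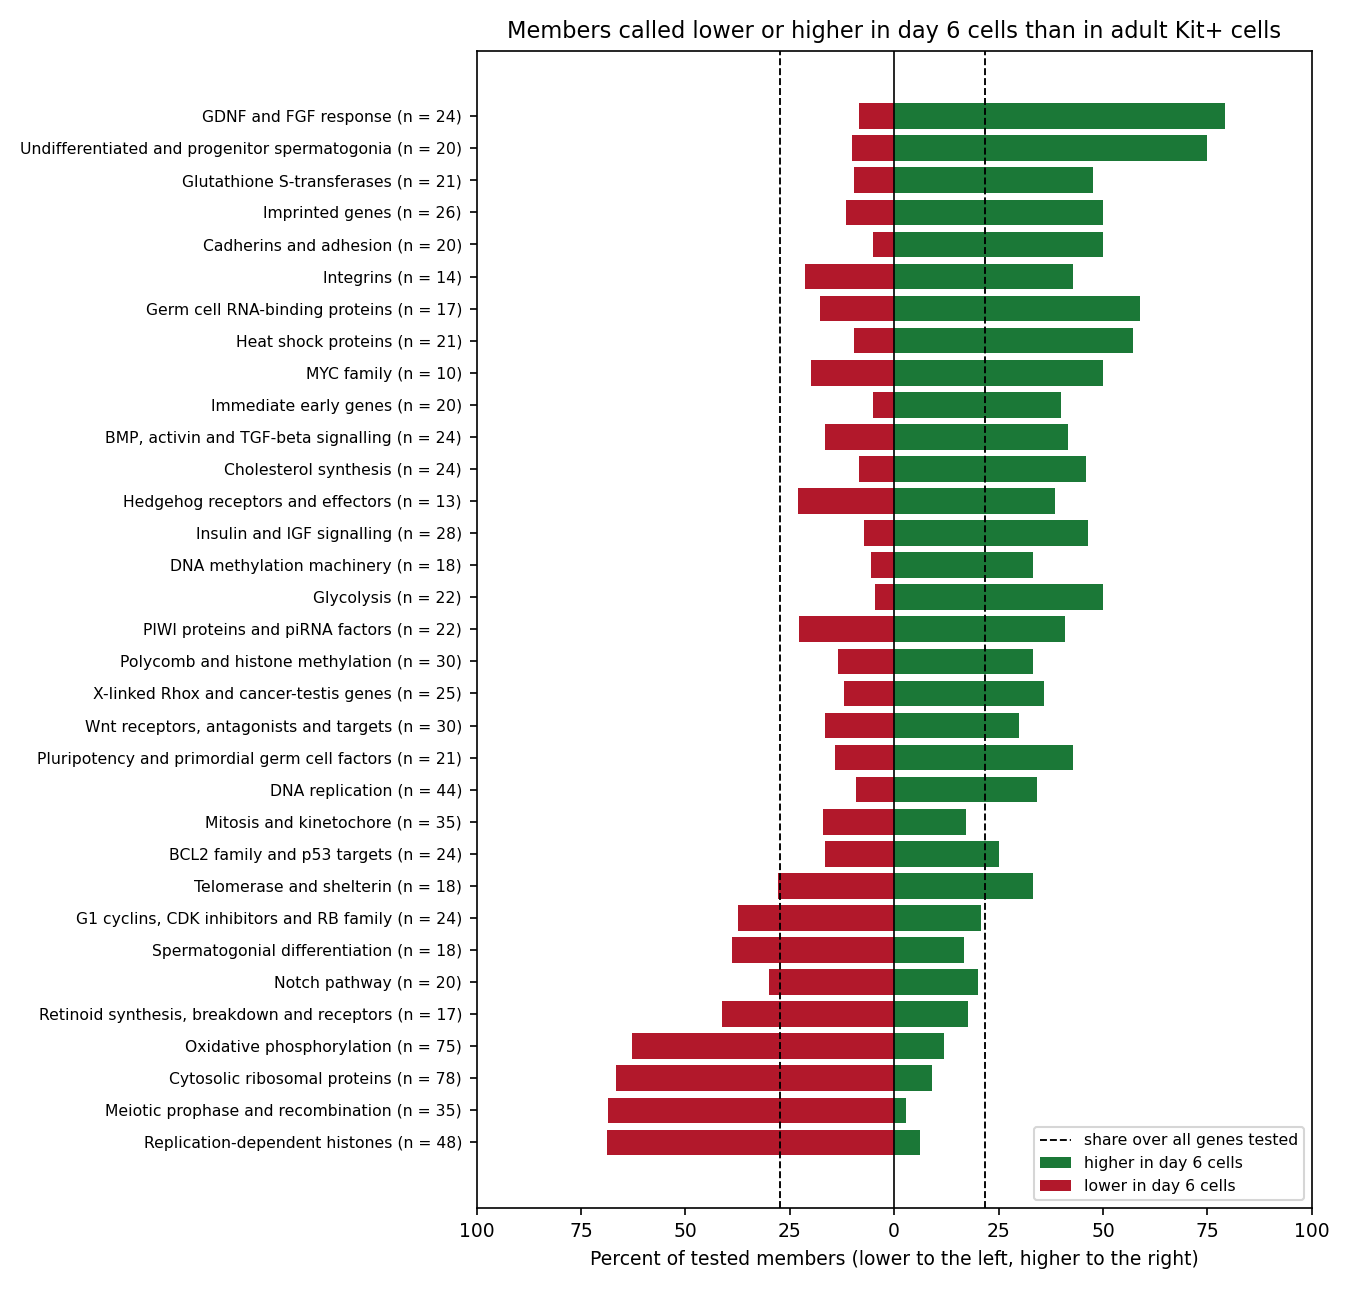
Percent of tested members of 33 gene lists called lower (left, red) or higher (right, green) at day 6 than in adult Kit-positive cells, ordered by the median log2 fold change of the list. Dashed lines mark the shares over all 15451 genes tested, 27.3% lower and 21.8% higher. The GDNF and FGF response list stands at the top and the replication-dependent histones at the bottom.

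GDNF and FGF signalling genes were mostly higher at day 6. GDNF binds GFRA1 and signals through RET, FGF acts through its own receptors, and both sustain stem cells by way of MAP kinase and SRC family kinases. Of 24 members tested, 19 were higher, 2 lower and 3 did not pass, with a median log2 fold change of 2.47. Among receptors, Ret was at 187, 182, 197 and 202 CPM at day 6 and at 4.2, 6.84, 11.3, 7.33 and 2.43 CPM in adult Kit-positive cells, with no overlap (log2 fold change 4.88 ± 0.25 (SE), adjusted p = 1.1e-10). Fgfr3, an FGF receptor, was among the few that were lower, at 7.5, 8.42, 8.8 and 6.73 CPM against 12.7, 20.4, 19.8, 19.96 and 19.2 CPM (log2 fold change -1.23 ± 0.24 (SE), adjusted p = 0.00036).

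Transcriptional regulators of the list were higher too. Etv5, needed for stem cell self-renewal, had 161, 134, 179.6 and 188 CPM at day 6 and 2.24, 7.42, 10.6, 4.09 and 1.39 CPM in adult Kit-positive cells (log2 fold change 4.96 ± 0.33 (SE), adjusted p = 2.2e-09). Even the lowest day 6 library was far above the highest adult Kit-positive library. Bcl6b, a repressor induced by GDNF, was at 76 against 3.91 CPM, Lhx1, a LIM homeobox factor, at 15.3 against 1.14 CPM, and Id4, an inhibitor of differentiation factors, at 13.7 against 2.42 CPM. Their log2 fold changes were 4.26, 3.71 and 2.50, and that of Lhx1 was 4.35 without adult Kit-positive library 3. Egr2, an immediate early zinc finger factor, was at 71.4, 55.7, 72.5 and 82.5 CPM and 1.96, 3.48, 4.8, 2.05 and 5.2 CPM (log2 fold change 4.33 ± 0.22 (SE), adjusted p = 1.1e-10).

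Feedback inhibitors that MAP kinase signalling induces included the largest rise among the named genes. Dusp6, the phosphatase of ERK, had 53.2, 57, 50.9 and 54.4 CPM at day 6 and 0.84, 2.44, 1.82, 0.512 and 0 CPM in adult Kit-positive cells. The log2 fold change was 5.45 ± 0.34 (SE), adjusted p = 1.1e-09. Spry4, a Sprouty inhibitor, had 40.3, 23.8, 44.5 and 56.9 CPM against 0.14, 2.78, 2.85, 0 and 0 CPM (log2 fold change 4.99, 5.59 without adult Kit-positive library 2 and 6.35 under limma voom). Nefm, a neurofilament gene, was at 47.5, 35.2, 32.8 and 43 CPM and 0.42, 1.62, 0.778, 0.853 and 0.693 CPM (log2 fold change 5.44 ± 0.35 (SE), adjusted p = 1.4e-09). In adult GFRA1-positive cells these 3 genes stood at 121, 117 and 57 CPM, and in GFRA1-negative cells at 9.82, 11.6 and 1.5 CPM.

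The 15 largest rises, chosen by the same rule as the falls, held Dusp6, Nefm, Spry4, Etv5, Gfra1, Ret and Egr2 from above and 8 further genes. Six4, a homeobox factor, was at 57.9, 31, 68 and 54.8 CPM against 0.7, 0.928, 1.17, 1.71 and 2.77 CPM, with 125 CPM in adult GFRA1-negative and 12.8 CPM in adult GFRA1-positive cells. Amot, a junction protein that binds the Hippo effector YAP, was at 102, 67.3, 109.8 and 97.4 CPM against 1.12, 3.36, 4.67, 2.9 and 3.64 CPM. The thrombin receptor F2r was at 20.1 against 0.836 CPM, the sphingosine kinase Sphk1 at 42.4 against 1.79 CPM, the matrix protein Smoc2 at 32 against 1.43 CPM and the glutamine transporter Slc38a1 at 31.6 against 1.55 CPM. Cd93, a surface glycoprotein, was at 26.7, 14.1, 32.5 and 30.1 CPM at day 6 and was counted in 3 of 5 adult Kit-positive libraries, at most at 1.82 CPM. Enc1, an actin-associated protein, was at 71 against 3.6 CPM. Log2 fold changes of these 8 genes ran from 4.28 for Enc1 to 5.24 for Six4, with every day 6 library above every adult Kit-positive library.

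Most markers of undifferentiated spermatogonia were higher at day 6. Of 20 members, 15 were higher, 2 lower and 3 did not pass (median log2 fold change 1.32). Without day 6 library 1, 1 was called lower. Zbtb16 (PLZF), a zinc finger factor of undifferentiated cells, was at 186, 125, 234 and 207 CPM at day 6 and 31.5, 56.7, 44.5, 33.1 and 30.7 CPM in adult Kit-positive cells (log2 fold change 2.25 ± 0.20 (SE), adjusted p = 9.2e-08). Glis3, a Krüppel-like zinc finger factor, was at 149, 105, 159 and 151 CPM against 9.24, 16.9, 17.9, 10.2 and 8.49 CPM (log2 fold change 3.47 ± 0.20 (SE), adjusted p = 4.5e-10). Foxc2, a forkhead factor of quiescent stem cells, was at 16 against 0.523 CPM (log2 fold change 4.76, or 5.38 without adult Kit-positive library 2).

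Smaller differences were found for the factors shared with progenitors. Sall4 was at 282 against 134 CPM, Foxo1 at 310.1 against 122 CPM and Lin28a, an inhibitor of let-7 microRNA processing, at 225 against 90.8 CPM, with log2 fold changes of 1.07, 1.34 and 1.31. The RNA-binding stem cell factor Nanos2 was low, at 4.3, 3.61, 6.62 and 5.91 CPM at day 6 and 0, 0.812, 1.56, 0 and 0.346 CPM in adult Kit-positive cells (log2 fold change 3.12, or 3.95 without adult Kit-positive library 3). Its relative Nanos3 was at 6.31 against 1.77 CPM and the progenitor factor Neurog3 at 7.91 against 2.47 CPM, with 39.3 CPM in adult GFRA1-negative cells. Day 6 cells were below adult GFRA1-positive cells in Etv5, Ret, Dusp6, Sall4 and Foxc2, with adjusted p = 0.0016, 0.0016, 0.0024, 0.0024 and 0.00064, so their levels lay between those of the adult GFRA1-positive and Kit-positive cells.

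Genes of spermatogonial differentiation did not move together. Of 18 members, 3 were higher, 7 lower and 8 did not pass, with a median of -0.15. With adult Kit-positive library 2 left out, 5 were called higher. Esx1, an X-linked homeobox factor, was at 5.42, 9.14, 7.56 and 7.7 CPM at day 6 and 51, 61, 76.6, 44.9 and 37.4 CPM in adult Kit-positive cells (log2 fold change -2.86 ± 0.34 (SE), adjusted p = 2.9e-06). Rhox13, another X-linked homeobox gene of differentiating germ cells, was at 14, 11.5, 10.2 and 12.9 CPM against 43, 38.1, 37.9, 59.5 and 45 CPM (log2 fold change -1.88 ± 0.21 (SE), adjusted p = 1.7e-06). Prss50, a testis serine protease, was at 1.14 against 19.9 CPM, its log2 fold change of -4.13 the largest fall in the list.

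Other members did not pass or were higher. Sohlh2, a helix-loop-helix factor that induces Kit, was at 111, 124, 109 and 108 CPM and 79.2, 118, 96.7, 96.9 and 57.3 CPM and did not pass (log2 fold change 0.34 ± 0.16 (SE), adjusted p = 0.097), but passed without adult Kit-positive library 2 (0.46, adjusted p = 0.024, in a range of 0.024 to 1 over all alternatives). Dmrtb1, a marker of differentiating spermatogonia, was at 32.2, 42.9, 34.8 and 25.3 CPM against 103, 66.3, 85.1, 81.4 and 68.3 CPM. Its groups did not overlap, and its log2 fold change of -1.26 had an adjusted p = 0.057, or 0.00011 when only the 9 libraries were fitted, in a range of 0.00011 to 0.16 over all alternatives. Dazl, an RNA-binding protein of germ cell commitment, was at 799, 741, 907 and 1032 CPM at day 6 and 535, 479.9, 548, 631 and 618 CPM in adult Kit-positive cells, and was higher in every day 6 library (log2 fold change 0.63 ± 0.15 (SE), adjusted p = 0.0025).

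The retinoid pathway, which starts differentiation, held genes in both directions, as did all genes tested (27.3% lower and 21.8% higher). Retinaldehyde is oxidised by aldehyde dehydrogenases to retinoic acid, which CYP26 enzymes break down and which acts through RAR and RXR receptors. Of 17 members, 3 were higher, 7 lower and 7 did not pass (median -0.57). A fit without day 6 library 1 called 4 lower. Among the binding proteins, Crabp1, which binds retinoic acid in the cytoplasm, was at 58.3, 120.0, 62.6 and 55.9 CPM against 289, 199.6, 161, 227 and 158 CPM (log2 fold change -1.48 ± 0.22 (SE), adjusted p = 2.9e-05), and the retinol carrier Rbp4 was at 14.1 against 37.8 CPM (log2 fold change -1.42). Aldh1a2, the synthetic enzyme of germ cells, was at 27.2, 49.1, 27.3 and 31.1 CPM and 45.1, 52.8, 72.8, 52 and 48 CPM, overlapping but lower (log2 fold change -0.69 ± 0.20 (SE), adjusted p = 0.0087). Aldh1a1, the Sertoli cell enzyme, was at 38.3, 125, 36.8 and 36.6 CPM and 37, 11.4, 1.95, 18.6 and 64.8 CPM and did not pass (log2 fold change 1.15, adjusted p = 0.16), nor did the breakdown enzyme Cyp26b1, at 6.25, 5.53, 3.31 and 3.99 CPM and 14.1, 12.3, 11.9, 13.3 and 3.64 CPM (log2 fold change -1.22, adjusted p = 0.05003). Without day 6 library 2, the highest of its group, the Aldh1a1 difference was 0.49 (adjusted p = 0.59). Both genes passed without adult Kit-positive library 5 (1.78, adjusted p = 0.037, and -1.44, adjusted p = 0.017), and Cyp26b1 also without both libraries (-1.55, adjusted p = 0.025), with ranges over all alternatives of 0.012 to 0.59 and 0.002 to 0.15. The receptor partner Rxra was higher, at 139 against 77.3 CPM (log2 fold change 0.85 ± 0.14 (SE), adjusted p = 0.00011).

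The 250 bases before the annotated Stra8 start (RefSeq, GRCm38.p6, chr6:34920698-34920947, + strand) are shown because retinoic acid receptors bind direct repeats of the half-site AGGTCA. Capitals mark its 2 exact matches on the gene's strand, 194 and 38 bases before the start.
Stra8: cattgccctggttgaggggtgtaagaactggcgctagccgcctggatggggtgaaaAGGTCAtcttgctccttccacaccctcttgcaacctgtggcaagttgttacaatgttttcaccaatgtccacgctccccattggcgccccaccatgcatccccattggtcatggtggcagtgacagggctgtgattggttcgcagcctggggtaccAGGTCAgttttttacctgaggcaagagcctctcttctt
The half-site was searched on both strands, and 14% of all 32851 promoter windows of that length hold it, so a match is a description and not a site.

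G1 regulators were called in both directions. D-type cyclins with CDK4 drive entry into S phase, E-type cyclins complete it, and the CIP/KIP and INK4 inhibitors oppose them. Of 24 members, 5 were higher, 9 lower and 10 did not pass (median -0.09). Leaving out day 6 library 1, 3 or 4 gave 5 lower. Ccnd2 was at 263, 205, 268 and 295 CPM at day 6 and 41.3, 67.7, 51.9, 41.8 and 36 CPM in adult Kit-positive cells, well apart (log2 fold change 2.43 ± 0.16 (SE), adjusted p = 2.1e-09). Cdk4 was at 147 against 63.9 CPM (log2 fold change 1.20 ± 0.14 (SE), adjusted p = 2.5e-06). Ccnd1 was at 203 against 165 CPM, and its log2 fold change of 0.30 (adjusted p = 0.031) missed the threshold without adult Kit-positive library 3 or 4 or day 6 library 2 or 4 (adjusted p = 0.054, 0.059, 0.089 and 0.059) and without both day 6 library 2 and adult Kit-positive library 5 (0.24, adjusted p = 0.10, in a range of 0.013 to 1 over all alternatives). The S phase cyclin Ccne2 was lower, at 35.3, 33.9, 25.9 and 37.2 CPM against 101, 99.7, 101, 181 and 161 CPM (log2 fold change -1.96 ± 0.22 (SE), adjusted p = 1.3e-06).

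Among the CDK inhibitors, the CIP/KIP gene Cdkn1b (p27) was at 2.36, 2.53, 4.55 and 3.99 CPM at day 6 and 0.56, 0.348, 0.259, 0 and 1.04 CPM in adult Kit-positive cells, and the imprinted Cdkn1c (p57) at 33.8 against 6.41 CPM, with log2 fold changes of 2.93 and 2.38. The INK4 gene Cdkn2c (p18) was at 1.11, 2.77, 1.76 and 1.37 CPM at day 6 and 15.4, 11.4, 15.6, 14.2 and 14.6 CPM in adult Kit-positive cells (log2 fold change -3.00 ± 0.54 (SE), adjusted p = 0.0002), and Cdkn2d (p19) at 3.47, 5.65, 5.8 and 5.77 CPM against 19.2, 27, 23.3, 8.53 and 41.7 CPM (log2 fold change -2.20 ± 0.38 (SE), adjusted p = 0.00013). In adult GFRA1-positive cells Cdkn2d stood at 18.5 CPM and Cdkn2c at 3.54 CPM. Cdkn1b stood at 9.18 CPM in adult GFRA1-positive and 23.3 CPM in adult GFRA1-negative cells, above day 6 in both (adjusted p = 0.0035 and 1.5e-05). Cdkn1c stood at 34.8 and 29.3 CPM and did not differ from day 6 past the threshold (adjusted p = 0.92 and 0.57).

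Replication and mitotic genes were called in both directions, and the counts moved with the setting. Of 44 replication genes, 15 were higher, 4 lower and 25 did not pass (median 0.06, or -0.07 without day 6 library 2 and adult Kit-positive library 5). The number called lower was 7 without day 6 library 2. Without both day 6 library 2 and adult Kit-positive library 5, 10 were called lower. In that last fit 12 were called higher, and limma voom with sample quality weights called 16 higher and 9 lower. Chaf1b, a chromatin assembly subunit, was at 70.8 against 20.9 CPM and Gmnn (geminin), which blocks relicensing of origins, at 45.2 against 94 CPM (log2 fold changes 1.76 and -1.06). Of 35 mitosis and kinetochore genes, 6 were higher, 6 lower and 23 did not pass (median 0.05), shares under those of all genes. With sample quality weights 11 were called higher and 7 lower. The kinetochore motor Cenpe was at 320.2, 63.6, 311 and 334 CPM and 78.3, 46.3, 90.4, 111 and 179 CPM, with day 6 library 2 far below the others of its group, and the survivin gene Birc5 was at 38.1 against 87.7 CPM (log2 fold changes 1.35 and -1.20, adjusted p = 0.0047 and 7.2e-05). The Cenpe difference was 1.96 without both libraries. Of 10 MYC family genes, 5 were higher, 2 lower and 3 did not pass, and Mycn was at 46.7 against 19.3 CPM (log2 fold change 1.27).

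**Figure D4:**
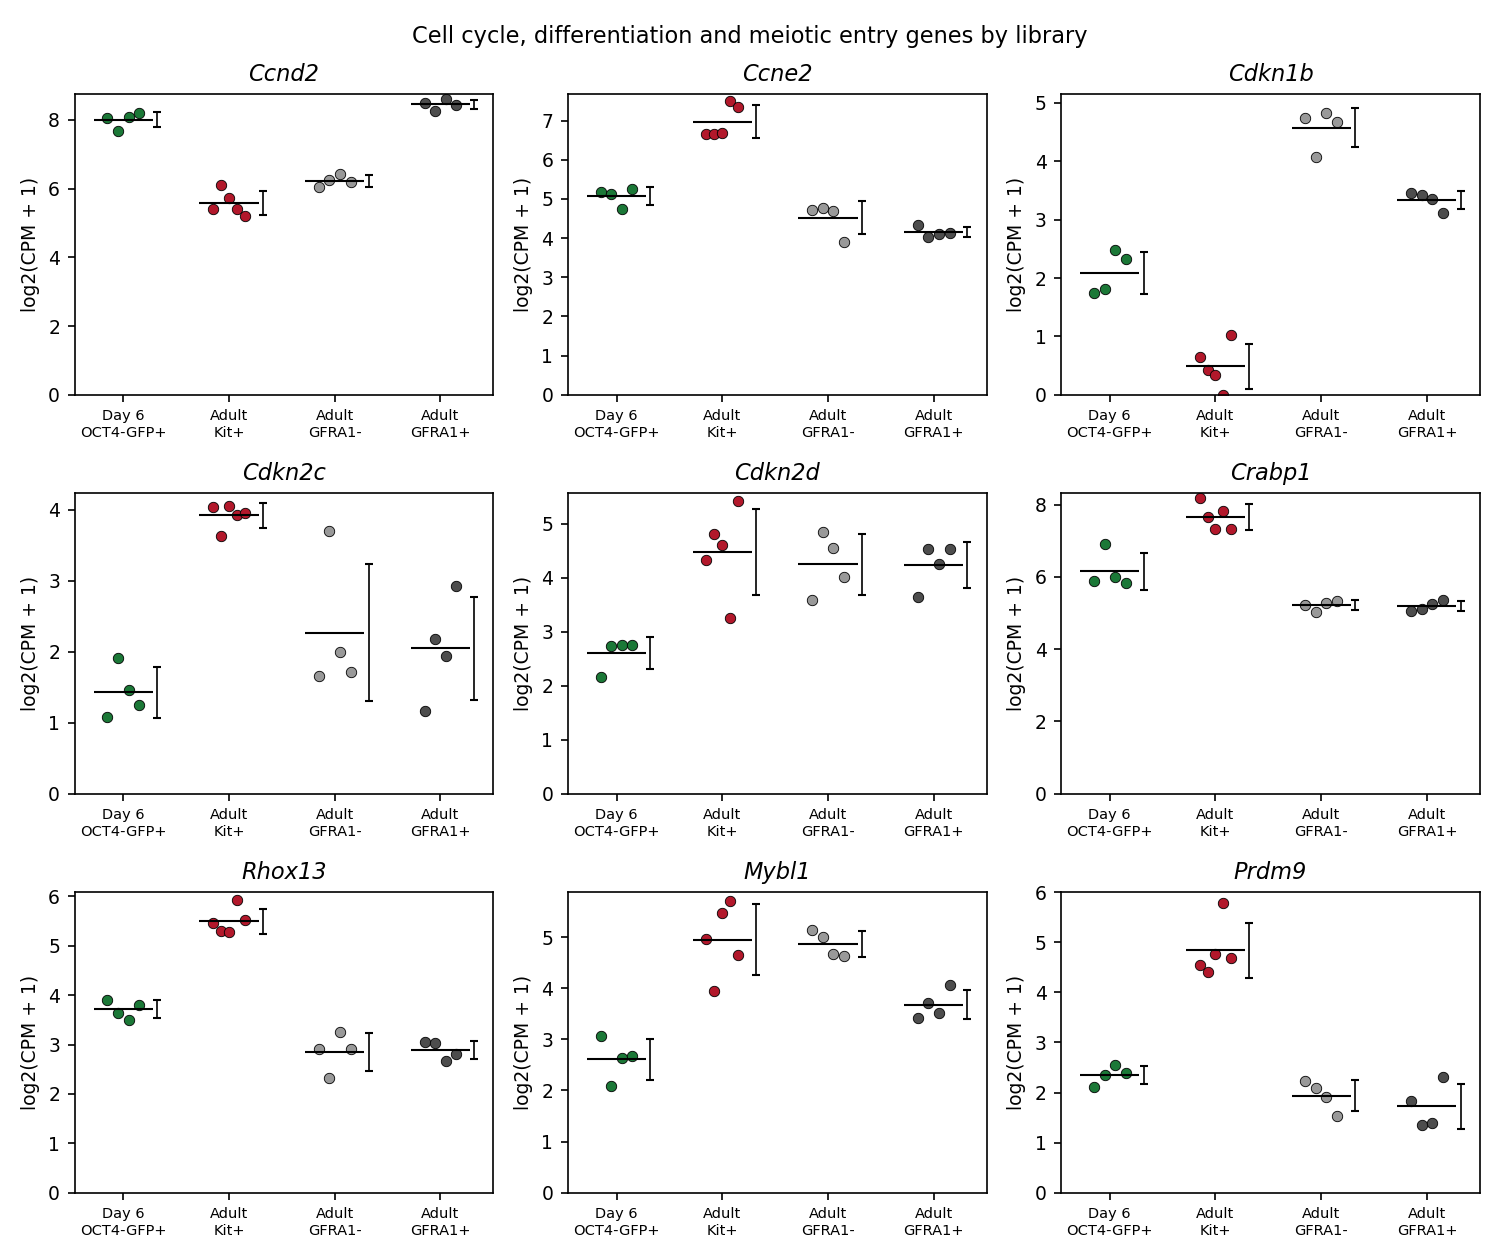
Levels of 9 genes of cell cycle, differentiation and meiotic entry in each library, as log2(CPM + 1) on the vertical axis, for the 4 groups. Points are libraries, lines are means and bars are ± 1 SD of the log2 values. Ccnd2 and Cdkn1b are higher at day 6 than in adult Kit-positive cells, and the other 7 genes are lower there, with no overlap between these groups.

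Most meiotic genes were lower at day 6. In adult spermatogonia, transcription of many meiotic genes begins before prophase itself. Of 35 members, 1 was higher, 24 lower and 10 did not pass (median log2 fold change -0.96), with 17 lower by over 2-fold. With day 6 library 2 left out, none was called higher. A fit without both day 6 library 2 and adult Kit-positive library 5 called 2 higher. Summed spermatocyte markers moved the same way, with 180.1 to 209 CPM at day 6 and 465 to 1186 CPM in adult Kit-positive cells. Meioc, which stabilises the meiotic program, was at 16.9, 11.2, 14.4 and 14.8 CPM at day 6 and 81.8, 73.6, 115, 199 and 122 CPM in adult Kit-positive cells (log2 fold change -3.04 ± 0.32 (SE), adjusted p = 7.2e-07). Prdm9, the methyltransferase that places recombination hotspots, was at 3.33, 4.09, 4.86 and 4.26 CPM against 22.3, 20.3, 26.3, 54.2 and 24.6 CPM (log2 fold change -2.83 ± 0.34 (SE), adjusted p = 4e-06). In adult GFRA1-negative and GFRA1-positive cells the means of Prdm9 were 2.9 and 2.43 CPM. Spermatocyte marker sums in single libraries of these groups ran from 548 to 2607 and from 279 to 1378 CPM. The part of spermatocyte RNA in the Prdm9 levels was not tested.

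Mei1, needed for meiotic breaks, was at 11.4, 14.1, 9.83 and 10.2 CPM against 26.3, 63.5, 49.7, 59.5 and 42.1 CPM (log2 fold change -2.08 ± 0.23 (SE), adjusted p = 1.5e-06). Dmc1, the meiotic recombinase, was at 19.2 against 39.8 CPM, Hormad1, of the chromosome axis, at 21.3 against 54.8 CPM, and Hfm1, a crossover helicase, at 16.5 against 47.9 CPM, with log2 fold changes of -1.05, -1.36 and -1.54. Sycp3, of the synaptonemal complex, was at 82.3, 64.7, 76.4 and 82.3 CPM and 107, 86.2, 105, 141 and 141 CPM. Its groups did not overlap, but it did not pass (adjusted p = 0.17, or 0.013 with only the 9 libraries, in a range of 0.013 to 0.53 over all alternatives). Mnd1, a recombinase partner, was the 1 higher member, at 20.8 against 10.8 CPM (log2 fold change 0.95, adjusted p = 0.02), and it missed the threshold without day 6 library 2 (0.84, adjusted p = 0.059, in a range of 0.0042 to 0.14 over all alternatives).

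The piRNA pathway, which silences transposons through PIWI proteins and Tudor partners, had members in both directions. Of 22 members, 9 were higher, 5 lower and 8 did not pass (median 0.19). Piwil4 (MIWI2), the nuclear PIWI protein of fetal germ cells, was at 18.5, 12.5, 17.4 and 19.7 CPM at day 6 and 4.9, 6.49, 8.17, 3.07 and 8.49 CPM in adult Kit-positive cells (log2 fold change 1.44 ± 0.23 (SE), adjusted p = 6.6e-05). Piwil2 (MILI) was at 432 against 266 CPM, Tdrd1 at 458 against 232 CPM and Tdrd5 at 84.5 against 40.8 CPM, with log2 fold changes of 0.70, 0.98 and 1.05. Piwil1 (MIWI), of meiotic and later cells, was at 8.49 against 30.7 CPM, Tdrd6 at 1.46 against 57.2 CPM and Tdrd9 at 87.7 against 144 CPM (log2 fold changes -1.85, -5.29 and -0.72). Mybl1 (A-MYB), which transcribes pachytene piRNA genes, was at 7.36, 3.25, 5.18 and 5.36 CPM at day 6 and 30.4, 14.4, 43.2, 51.3 and 24.1 CPM in adult Kit-positive cells (log2 fold change -2.63 ± 0.33 (SE), adjusted p = 5.3e-06). Piwil1 is also counted in the spermatocyte marker list.

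Replication-dependent histone genes gave the lowest list median outside the cell type markers. Most of their mRNAs end in a stem-loop in place of a poly(A) tail and are made in S phase. Of 48 members, 3 were higher, 33 lower and 12 did not pass (median log2 fold change -1.60), and the summed level was 1967 to 3505 CPM at day 6 and 5737 to 18559.6 CPM in adult Kit-positive cells. The 10 H2A genes had a median of -2.10 with 9 lower, the 13 H2B genes -1.75 with 10 lower, the 10 H4 genes -1.53 with 6 lower, the 6 H1 genes -1.24 with 3 lower and the 9 H3 genes -0.77 with 5 lower. Copies within a class are near-identical, so the split of reads between them is uncertain.

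The testis-enriched H2ac1 was at 78, 130.5, 68.1 and 66.5 CPM at day 6 and 1339, 1007, 824, 2248 and 741 CPM in adult Kit-positive cells, the largest fall in the list (log2 fold change -3.84 ± 0.39 (SE), adjusted p = 4.8e-07). Its partner H2bc1, also of the testis, was at 17.5, 22.7, 13.4 and 7.01 CPM against 103, 84.9, 71.3, 148 and 74 CPM (log2 fold change -2.67 ± 0.37 (SE), adjusted p = 2.1e-05). H2bc14 was at 248, 363, 189 and 273 CPM against 2027, 1848, 1187, 3915 and 1178 CPM, and H2ac6 at 27.8, 41.5, 26.3 and 27.8 CPM against 201, 113, 100.4, 246 and 63.6 CPM (log2 fold changes -2.92 and -2.23). The linker histones H1f1 and testis H1f6 were at 225 against 1255 and 12.4 against 67.1 CPM. The members that were higher, H1f5, H2ac20 and H4c14, stood at 14 against 6.13, 8.18 against 3.74 and 4.3 against 1.75 CPM, and H2ac20 missed the threshold without day 6 library 2 and adult Kit-positive library 5 together (adjusted p = 0.091, in a range of 0.005 to 0.091 over all alternatives). Adult Kit-positive library 4 was the highest for H2ac1, H2bc1, H2bc14, H2ac6 and H1f1. In adult GFRA1-positive cells H2ac1 and H2bc14 stood at 124 and 199 CPM, and neither differed from day 6 past the threshold (adjusted p = 0.26 and 0.3). H1f1 and H1f6, at 274 and 19.1 CPM there, did not either (adjusted p = 0.41 and 0.29). H2bc1 and H2ac6, at 72.9 and 74.5 CPM, were above day 6 (adjusted p = 0.00021 and 0.0049). So were H1f5, H2ac20 and H4c14, at 28.4, 18.9 and 16.7 CPM (adjusted p = 0.032, 0.012 and 0.00027).

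Upstream sequences of 3 of these genes are shown because many histone promoters of the H2A and H2B classes carry the octamer that OCT factors bind. Each line gives the 150 bases before the annotated start (RefSeq, GRCm38.p6), with the octamer ATTTGCAT, or its reverse complement ATGCAAAT, in capitals. H2ac1 is at chr13:23934287-23934436 (+ strand), H2ac6 at chr13:23683960-23684109 (- strand) and H2bc14 at chr13:21721894-21722043 (+ strand).
H2ac1: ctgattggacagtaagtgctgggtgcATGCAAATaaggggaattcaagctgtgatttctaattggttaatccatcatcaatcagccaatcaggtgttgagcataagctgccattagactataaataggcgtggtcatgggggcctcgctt
H2ac6: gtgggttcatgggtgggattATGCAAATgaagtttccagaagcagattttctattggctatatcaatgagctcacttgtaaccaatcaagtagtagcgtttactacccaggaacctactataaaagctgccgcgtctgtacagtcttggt
H2bc14: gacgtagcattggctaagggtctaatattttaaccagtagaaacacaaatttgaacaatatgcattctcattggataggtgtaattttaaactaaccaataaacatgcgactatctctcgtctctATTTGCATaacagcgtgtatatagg
Among the 48 listed histone genes 44 had a promoter entry, and 13 held an exact octamer within 250 bases upstream on either strand, 6 of 10 H2A and 7 of 12 H2B genes and none of the 6 H1, 7 H3 and 9 H4 genes. Over all genes 1.60% of 32851 windows of that length held it. Of the 13 genes with the octamer 10 were lower and 1 higher (median -1.87), and of the 31 without it 21 were lower and 1 higher (median -1.60). The 13 are all H2A or H2B genes, and the 31 include every H1, H3 and H4 gene with a promoter entry. Octamer and histone class therefore cannot be told apart in these medians, and a link to the octamer was not tested.

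**Figure D5:**
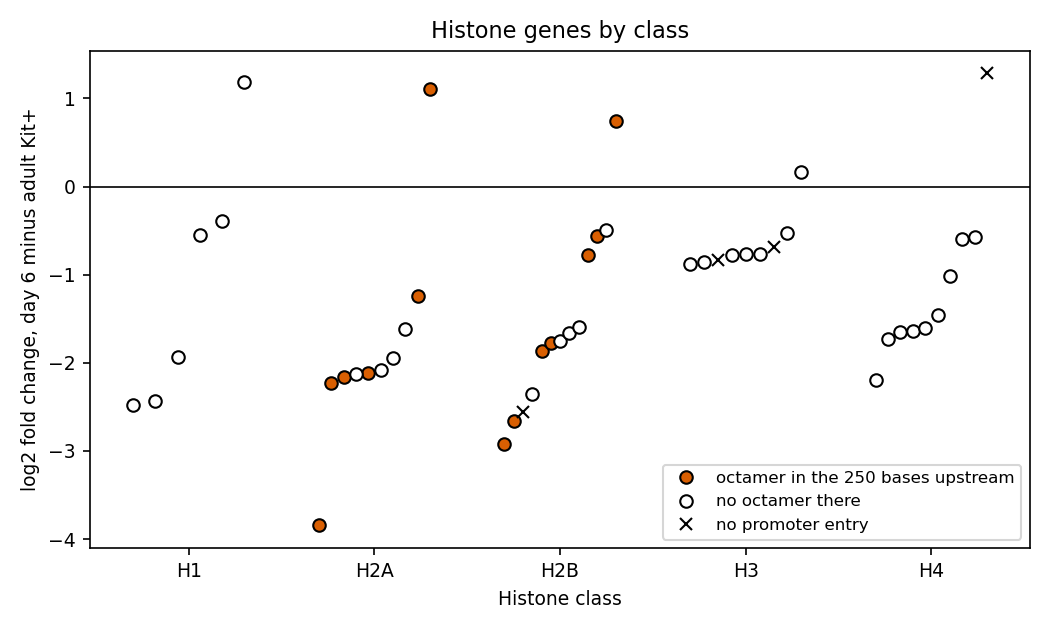
Log2 fold change of day 6 minus adult Kit-positive cells for each of the 48 histone genes tested, by class along the horizontal axis. Filled points have the octamer in the 250 bases upstream, open points do not, and crosses have no promoter entry. The H2A and H2B classes reach furthest below 0, to -3.84 and -2.92, while the lowest H3 gene is at -0.88.

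Pluripotency and primordial germ cell factors were mixed. Of 21 members tested, 9 were higher, 3 lower and 9 did not pass (median 0.11, or -0.04 without adult Kit-positive library 5). Dppa4 was at 10.4, 11.5, 11.8 and 9.35 CPM at day 6 and 0.56, 3.25, 1.56, 2.05 and 0.866 CPM in adult Kit-positive cells (log2 fold change 2.67 ± 0.36 (SE), adjusted p = 1.5e-05), and its partner Dppa2 at 3.44 against 0.403 CPM (log2 fold change 2.95, or 4.38 without adult Kit-positive library 2). In adult GFRA1-positive cells they stood at 12.1 and 4.36 CPM. Zfp42 (REX1) was at 9.7 against 3.34 CPM, the nuclear receptor Nr5a2 at 29.5 against 6.76 CPM and the phosphatase Alpl at 21.3 against 8.82 CPM, with log2 fold changes of 1.53, 2.12 and 1.25. Of 17 germ cell RNA-binding proteins, 10 were higher, 3 lower and 4 did not pass (median 0.53). Leaving out adult Kit-positive library 4 gave 1 lower. Igf2bp2 was at 17.3 against 3.16 CPM and Boll, the meiotic relative of Dazl, at 13.4 against 30.05 CPM (log2 fold changes 2.44 and -1.17).

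DNA methylation genes changed little in size. Of 18 members, 6 were higher, 1 lower and 11 did not pass, none by over 2-fold. The number called lower was 2 without adult Kit-positive library 1 or 5 or both day 6 library 2 and adult Kit-positive library 5. The de novo enzyme Dnmt3a was at 214, 269.9, 241 and 248 CPM at day 6 and 157, 189, 162, 138 and 168 CPM in adult Kit-positive cells (log2 fold change 0.58 ± 0.15 (SE), adjusted p = 0.003). Dnmt3b, at 161, 217, 185 and 172 CPM and 141, 208, 129, 138 and 127 CPM, and the maintenance enzyme Dnmt1, at 501 against 401 CPM, did not pass (adjusted p = 0.11 and 0.078), and both passed without adult Kit-positive library 2 (0.46, adjusted p = 0.0080, and 0.45, adjusted p = 0.0088), with ranges over all alternatives of 0.008 to 1 and 0.0088 to 1. Uhrf1, the cofactor of Dnmt1, was at 229 against 147 CPM (log2 fold change 0.64 ± 0.13 (SE), adjusted p = 0.00043). Of 30 Polycomb and histone methylation genes, 10 were higher, 4 lower and 16 did not pass. Without day 6 library 4 or adult Kit-positive library 2, 2 were called lower. With day 6 library 1 left out, 1 was called lower. Pcgf6 and Cbx7, subunits of Polycomb repressive complex 1, were at 53.8 against 13.4 and 15.5 against 5.63 CPM (log2 fold changes 1.99 and 1.46).

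Imprinted genes were higher in 13 of 26 cases and lower in 3 (median log2 fold change 0.91). Mest was at 71.2, 73.7, 80.4 and 89.7 CPM at day 6 and 12.7, 11.4, 14.1, 15.2 and 13.9 CPM in adult Kit-positive cells (log2 fold change 2.55 ± 0.13 (SE), adjusted p = 1.4e-10). Peg10 was at 33.7 against 9.84 CPM, Snrpn at 20.9 against 5.19 CPM and Gnas at 92.9 against 31.6 CPM, with log2 fold changes of 1.78, 2.00 and 1.56. Grb10, a growth factor receptor adaptor, went the other way, at 46.8, 76.5, 53.7 and 54.6 CPM against 128, 186, 109, 131 and 138 CPM (log2 fold change -1.26 ± 0.17 (SE), adjusted p = 1.4e-05). Of 25 X-linked Rhox and cancer-testis genes, 9 were higher, 3 lower and 13 did not pass. A fit without both day 6 library 2 and adult Kit-positive library 5 called 5 lower. Mageb4, Mageb16 and the protease Usp26 were at 352 against 147, 199.6 against 67.7 and 427 against 192 CPM (log2 fold changes 1.26, 1.56 and 1.15).

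Among signalling pathways, Hedgehog genes showed a receptor and an effector that differed in opposite directions. Ptch1, the Hedgehog receptor and itself a target of the pathway, was at 64.8, 54.2, 77.3 and 62.7 CPM at day 6 and 2.24, 6.15, 4.93, 1.36 and 2.6 CPM in adult Kit-positive cells (log2 fold change 4.17 ± 0.27 (SE), adjusted p = 1.7e-09). In adult GFRA1-negative cells it reached 312 CPM. The effector Gli2 was at 5, 5.41, 4.04 and 3.16 CPM against 20.6, 29.2, 28.1, 8.7 and 18 CPM (log2 fold change -2.25 ± 0.40 (SE), adjusted p = 0.00018). Of 13 members, 5 were higher, 3 lower and 5 did not pass. Of 20 Notch pathway genes, 4 were higher, 6 lower and 10 did not pass (median -0.36), with the receptor Notch1 at 26.7 against 12.9 CPM and the ligand Jag2 at 10.7, 22.8, 14.3 and 14.7 CPM against 36.4, 61.9, 39.4, 44.3 and 24.3 CPM (log2 fold changes 1.04 and -1.40).

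Wnt genes were called in both directions. Of 30 Wnt genes, 9 were higher, 5 lower and 16 did not pass. Leaving out day 6 library 2, or adult Kit-positive library 3, or both day 6 library 2 and adult Kit-positive library 5 gave 2 lower. The number called lower was 3 without day 6 library 3 or 4 or adult Kit-positive library 5. Sfrp2, a secreted Wnt antagonist, was at 61.7, 54.6, 69.2 and 69.5 CPM at day 6 and 2.52, 9.04, 4.67, 5.97 and 2.25 CPM in adult Kit-positive cells (log2 fold change 3.68 ± 0.29 (SE), adjusted p = 1.9e-08), and Dkk3 at 22.3 against 2.96 CPM (log2 fold change 2.90). Fst (follistatin), which binds activin, was at 20.7, 19.1, 18.9 and 23.8 CPM against 0.98, 3.36, 2.2, 2.05 and 0.346 CPM (log2 fold change 3.48 ± 0.36 (SE), adjusted p = 5.8e-07), in a list of 24 BMP, activin and TGF-beta genes of which 10 were higher, 4 lower and 10 did not pass. Of 28 insulin and IGF genes, 13 were higher, 2 lower and 13 did not pass. Without day 6 library 1, 3 or 4 or adult Kit-positive library 2 or 4, 1 was called lower. With adult Kit-positive library 5 or both day 6 library 2 and adult Kit-positive library 5 left out, 4 were called lower. The receptors Insr and Igf1r were at 8.79 against 3.33 and 274 against 166 CPM, and Ddit4, an inhibitor of mTORC1, at 4.53 against 0.816 CPM (log2 fold changes 1.39, 0.72 and 2.48). Ddit4 stood at 3.74 CPM in adult GFRA1-positive and 26.8 CPM in adult GFRA1-negative cells.

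Adhesion genes were more often higher than lower at day 6. Of 20 cadherin and adhesion genes, 10 were higher, 1 lower and 9 did not pass (median 0.81). A fit without adult Kit-positive library 1 or 5 or both day 6 library 2 and adult Kit-positive library 5 called 2 lower. Ocln, of tight junctions, was at 22.5, 25.4, 25.9 and 26.5 CPM against 1.4, 3.94, 2.46, 1.36 and 2.08 CPM (log2 fold change 3.44 ± 0.28 (SE), adjusted p = 3.8e-08). Cdh1 (E-cadherin), a surface marker of undifferentiated spermatogonia, was at 25.2 against 10.2 CPM, Cdh4 at 7.83 against 0.583 CPM and the homing receptor Cxcr4 at 10.6 against 2.69 CPM (log2 fold changes 1.28, 3.61 and 2.00). Of 14 integrin genes, 6 were higher, 3 lower and 5 did not pass. Leaving out day 6 library 3 gave 1 lower. Itga6, the laminin receptor subunit used to enrich stem cells, was at 139, 109, 156 and 149.9 CPM at day 6 and 16.8, 28.2, 21.7, 26.1 and 15.6 CPM in adult Kit-positive cells (log2 fold change 2.67 ± 0.16 (SE), adjusted p = 8.7e-10). Its partner Itgb1 was at 186 against 135 CPM and Itgb5 at 29.1 against 4.32 CPM (log2 fold changes 0.46 and 2.74).

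Glycolysis genes were called higher, and respiratory chain genes lower, more often than all genes tested. Of 22 glycolysis genes, 11 were higher, 1 lower and 10 did not pass (median 0.23). The number called lower was none without day 6 library 3 or adult Kit-positive library 1 or 3. Without adult Kit-positive library 5 or both day 6 library 2 and adult Kit-positive library 5, 2 were called lower. Pkm, the pyruvate kinase, was at 386, 461, 376 and 414 CPM at day 6 and 50.3, 90.6, 60.2, 86.8 and 66.3 CPM in adult Kit-positive cells (log2 fold change 2.53 ± 0.15 (SE), adjusted p = 7.6e-10). Pdk1, a kinase that inhibits pyruvate dehydrogenase, was at 73.5, 66.9, 90.3 and 84.8 CPM against 4.9, 9.16, 9.6, 10.2 and 8.14 CPM (log2 fold change 3.23 ± 0.18 (SE), adjusted p = 3.5e-10). Eno1, the glucose transporter Slc2a1 and the lactate dehydrogenase subunit Ldhb were at 384 against 99.4, 61.6 against 17.6 and 27.6 against 3.93 CPM (log2 fold changes 1.95, 1.80 and 2.81, that of Ldhb 2.19 without both libraries).

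Of 75 oxidative phosphorylation genes, 9 were higher, 47 lower and 19 did not pass (median log2 fold change -0.66), yet their summed level overlapped, at 9292 to 13553 CPM at day 6 and 8758 to 12619 CPM in adult Kit-positive cells. Among the lower subunits, Atp5e was at 43.9, 73.2, 40.7 and 43.4 CPM against 294, 223, 133, 323 and 246 CPM (log2 fold change -2.28 ± 0.22 (SE), adjusted p = 3.2e-07), and Uqcr11, Ndufa3 and Atp5k were at 25.4 against 98.6, 20.8 against 73.4 and 30.1 against 105 CPM (log2 fold changes -1.96, -1.82 and -1.79). The catalytic ATP synthase subunit Atp5b was at 3289, 4368, 3019 and 3341 CPM against 1619.97, 1881, 1666, 1626 and 1502 CPM and was higher (log2 fold change 1.08 ± 0.13 (SE), adjusted p = 2.8e-06), as were Atp5a1 at 733 against 447 CPM and the succinate dehydrogenase subunit Sdha at 359 against 218 CPM (log2 fold changes 0.71 and 0.72). In adult GFRA1-positive cells Atp5e stood at 48.3 CPM and Uqcr11 at 21.4 CPM.

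Cytosolic ribosomal protein genes were mostly lower as well. Of 78 members, 7 were higher, 52 lower and 19 did not pass (median -0.69), with overlapping sums of 34715 to 55259 CPM at day 6 and 45689 to 71046 CPM in adult Kit-positive cells. Rplp2 was at 445, 591, 385 and 384 CPM against 1603, 1552, 996, 1669.6 and 1049.6 CPM (log2 fold change -1.61 ± 0.18 (SE), adjusted p = 1.6e-06), and Rpl36 and Rpl41 at 126 against 439 and 595 against 1862 CPM (log2 fold changes -1.80 and -1.65). Rpl5, of the 5S RNA particle, was at 1863, 2274, 1748 and 1863 CPM against 794, 715, 578, 875 and 848 CPM and was higher (log2 fold change 1.35 ± 0.17 (SE), adjusted p = 5e-06), as were Rpl4 and Rps4x at 2378 against 1325 and 131 against 31.8 CPM (log2 fold changes 0.84 and 2.03). Ribosomal protein genes have many processed pseudogenes, so reads may be shared between copies.

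Of 21 glutathione S-transferase genes, which conjugate toxic compounds, 10 were higher, 2 lower and 9 did not pass (median log2 fold change 1.11). Without day 6 library 2, 7 were higher and the median was 0.45, and without adult Kit-positive library 5 as well the median was 0.26. Gsta4 was at 233, 295, 179 and 259.7 CPM at day 6 and 29.7, 33.2, 17.6, 27.3 and 32.2 CPM in adult Kit-positive cells (log2 fold change 3.11 ± 0.19 (SE), adjusted p = 7.8e-10), and Gsta3 at 23 against 2.77 CPM (log2 fold change 3.05). Gstm5 was lower, at 93.4, 147, 89.5 and 89.1 CPM against 454, 251, 250.03, 207 and 270.4 CPM (log2 fold change -1.45 ± 0.37 (SE), adjusted p = 0.0031). In adult GFRA1-positive and GFRA1-negative cells it stood at 229 and 359 CPM. Adult Kit-positive library 1, its highest in that group, also had the highest spermatid marker sum there, and a link was not tested. Gstm1 was at 66.7, 228, 71.3 and 76.7 CPM and 82.3, 41.6, 16, 41.3 and 50.2 CPM, and its difference of 1.26 (adjusted p = 0.011) did not pass without day 6 library 2 (0.64, adjusted p = 0.13) or without both libraries (0.62, adjusted p = 0.17, in a range of 0.0032 to 0.17 over all alternatives). Genes of 1 class are similar in sequence, so the split of reads between them is uncertain. The high Gstm1 of day 6 library 2 stood beside its high Sertoli markers, and a link between them was not tested.

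Among stress and survival genes, 8 of 20 immediate early genes were higher and 1 lower (median 0.40, 0.24 without day 6 library 2 and 0.11 without both that library and adult Kit-positive library 5). With day 6 library 3 left out, none was called lower. Egr1 was at 132, 126, 162 and 170.4 CPM against 10.2, 16.5, 17.8, 15.7 and 10.9 CPM and Egr4 at 39.6 against 6.51 CPM (log2 fold changes 3.37 and 2.59), and in adult GFRA1-positive cells they stood at 369 and 65.4 CPM. Of 21 heat shock genes, 12 were higher, 2 lower and 7 did not pass, with the mitochondrial chaperonin Hspd1 at 447 against 223 CPM. The lower members were the chaperones of meiotic and later cells Hspa2, at 18.9 against 114 CPM, and Hspa1l, at 2.8 against 28.4 CPM, which are also in the spermatocyte and spermatid marker lists. Of 24 BCL2 family and p53 target genes, 6 were higher, 4 lower and 14 did not pass. Pmaip1 (NOXA) was at 36, 13.7, 39.95 and 28.6 CPM at day 6 and 0.56, 1.62, 2.2, 1.36 and 3.46 CPM in adult Kit-positive cells (log2 fold change 4.01 ± 0.43 (SE), adjusted p = 8.7e-07), while Bax was at 24, 31.1, 21.1 and 19.1 CPM against 51.8, 49.2, 37.9, 51.7 and 33.8 CPM (log2 fold change -0.91 ± 0.18 (SE), adjusted p = 0.00038).

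Of 24 cholesterol synthesis genes, 11 were higher, 2 lower and 11 did not pass. A fit without adult Kit-positive library 5 called 4 lower. The synthase Hmgcs1 was at 184, 145, 183 and 186 CPM at day 6 and 87.1, 87.4, 98.3, 78.5 and 64.1 CPM in adult Kit-positive cells (log2 fold change 1.07 ± 0.18 (SE), adjusted p = 0.00011). Of 18 telomerase and shelterin genes, 6 were higher, 5 lower and 7 did not pass, and the direction of the list median (-0.05) turned in 3 alternatives. Leaving out day 6 library 3 or 4 or adult Kit-positive library 4 gave 3 lower. Dkc1 (dyskerin), which binds the telomerase RNA, was at 116, 122, 115 and 135 CPM against 47.5, 50.1, 49.8, 46.6 and 68.9 CPM (log2 fold change 1.21 ± 0.19 (SE), adjusted p = 4.9e-05), and Terf1, which binds telomere repeats, at 48.2 against 19.7 CPM (log2 fold change 1.29). The difference of Tert itself did not pass, and its reporter was part of both sorts.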

How the data were processed

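Sorted mouse germ cells were sequenced in 17 libraries, of which 4 from day 6 and 5 from adult Kit-positive cells are compared here. RNA was amplified with NuGEN Ovation V2 and sequenced as paired ends, per the labels' protocols. The authors deposited raw counts per Entrez gene, 1 column per library. The submitters' processing notes name Trim Galore, TopHat2 2.0.4, Bowtie2 2.0.0-6, Bowtie, DESeq, DESeq2 and the mm9 build, without their roles. Which program counted the reads, with which gene models and whether by strand, is not given in the sources used here, so reads of overlapping, antisense or near-identical genes cannot be told apart.

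Of 24013 entries, 23930 matched a symbol through the RefSeq gene table, and 1179 shared identical counts with another entry. Counts were fitted with edgeR 4.0.16 (R 4.3.3): TMM scaling, a low-count filter by group that left 15451 genes, quasi-likelihood F-tests with a separate mean for each of the groups, fitted over the 17 libraries together, and Benjamini-Hochberg adjustment over all genes tested. A gene was called higher or lower at an adjusted p under 0.05, and every adjusted p printed comes from this fit unless another is named. Fold changes are log2 of day 6 over adult Kit-positive cells. The common biological coefficient of variation was 0.30. Replicate libraries of a group differed by more than sampling noise (chi-square per degree of freedom from 4.13 to 51.0 over 28 pairs). Tested on simulated data for this comparison with 15177 genes, the fit recovered 10.4% of 67 genes changed by 1.5-fold, 44.8% of 67 changed by 2-fold and 66.7% of 66 changed by 4-fold, with 3 false among 84 calls. The simulation changed only 200 genes, whereas 49.1% of genes were called in the data. These rates therefore need not hold for the real comparison.

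Members and gene lists were chosen with earlier results of these data known. Named genes were the sort genes, the 15 largest rises and the 15 largest falls among called genes with a group mean of at least 20 CPM and no overlap, from each list the members of lowest adjusted p (at most 6, with a group mean of 5 CPM or more), and members needed to describe a list by their roles. Promoter sequences are from RefSeq on GRCm38.p6, not the build of the files, and were found by symbol. Alternatives used limma 3.58.1, DESeq2 1.42.0, other scalings and filters, a fold threshold, and libraries left out. Figures used matplotlib 3.10.9. Set tests, and tests over cells, were not run. Some members of the lists are counted in them but not reported by name here.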

Additional observations from a re-analysis of the deposited data

Results flagged for a closer look

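A library far from the others of its group, with a gap above the 95% critical value of Dixon's test, was found in 39 of 357 gene and group pairs, where chance gives about 1 in 20. Day 6 library 2 accounts for 19 of them. It was highest for the Sertoli markers Aard (76.2 CPM, others 21.2 to 25.2), Clu (84.8 CPM, others 21.2 to 25.0), Dhh (13.5 CPM, others 3.44 to 4.44) and Sox9 (10.7 CPM, others 4.30 to 5.09). It was also highest for Aldh1a1 (125 CPM, others 36.6 to 38.3), Atp5a1 (849 CPM, others 684 to 703), Atp5e (73.2 CPM, others 40.7 to 43.9), Atp5k (46.2 CPM, others 23.5 to 26.7), Crabp1 (120.0 CPM, others 55.9 to 62.6) and Gnas (151 CPM, others 71.2 to 75.8), and for Gstm1 (228 CPM, others 66.7 to 76.7), Gstm5 (147 CPM, others 89.1 to 93.4), H2ac6 (41.5 CPM, others 26.3 to 27.8) and Uhrf1 (253 CPM, others 220.0 to 221). It was lowest for Cenpe (63.6 CPM, others 311 to 334), Gfra1 (118 CPM, others 151 to 157), Hfm1 (13.7 CPM, others 17.2 to 17.7), Hmgcs1 (145 CPM, others 183 to 186) and Pou5f1 (5.53 CPM, others 23.1 to 26.3). The summed Sertoli markers were highest in that library, and their part in these values was not tested.

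Day 6 library 1 was lowest for Cdkn2d (3.47 CPM, others 5.65 to 5.80) and Tdrd1 (397 CPM, others 476 to 482). Day 6 library 4 was highest for Pabpc2 (0.137 CPM, others 0), which rests on 1 count. Adult Kit-positive library 1 was highest for Amh (0.840 CPM, others 0 to 0.130), Clu (17.9 CPM, others 3.81 to 6.03), Gstm5 (454 CPM, others 207 to 270.0), Smcp (118 CPM, others 25.6 to 46.6), 1700013G24Rik (76.9 CPM, others 15.0 to 28.1) and 1700008K24Rik (63.4 CPM, others 17.9 to 29.4), and lowest for Fgfr3 (12.7 CPM, others 19.2 to 20.4) and Gnas (23.4 CPM, others 32.0 to 35.3). Adult Kit-positive library 2 was highest for Cdh1 (17.7 CPM, others 7.65 to 9.52), Dnmt3b (208 CPM, others 127 to 141) and Dppa2 (1.39 CPM, others 0 to 0.280), and library 3 for Aldh1a2 (72.8 CPM, others 45.1 to 52.8). Adult Kit-positive library 4 was highest for the meiotic genes Hfm1 (86.0 CPM, others 32.3 to 46.1) and Prdm9 (54.2 CPM, others 20.3 to 26.3), and lowest for Itgb5 (2.73 CPM, others 4.62 to 4.80). Adult Kit-positive library 5 was highest for Dkc1 (68.9 CPM, others 46.6 to 50.1) and lowest for Cyp26b1 (3.64 CPM, others 11.9 to 14.1).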

How the results depend on the processing

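Over 22 alternatives, 154 of the 186 named genes kept their direction and their side of the threshold. Tested against a fold of at least 1.5, 1535 genes were higher and 2289 lower, against 3369 and 4224 as reported. Leaving out each library in turn gave 3004 to 3487 genes higher and 3590 to 4231 lower. Under the other scalings, filters and tools the numbers stayed within 1.5 times, from 2983 higher and 3449 lower with only the 9 libraries to 3752 higher and 4578 lower with limma voom and sample quality weights, and higher genes made up 40.1% to 47.9% of the calls in all alternatives. The direction turned for genes that had not passed: with 1 library left out at a time Tert ran from -0.19 to 0.073, above 0 without day 6 library 4, and Wt1 from -0.66 to 0.20, above 0 without adult Kit-positive library 1 or 4 or day 6 library 1 or 4, and at 0.28 under limma voom. The cause was not tested. With the fold threshold, the calls of Kit, Dazl, Ccnd1, Dnmt3a, Uhrf1, Aldh1a2, Gata4, Gstm1, Mnd1, Itgb1, Igf1r, Piwil2, Tdrd9, H1f5, H2ac20, Rpl4, Atp5a1 and Sdha were lost, as that test asks for a larger change. Groups share replicate numbers, but the labels do not say that a number marks a shared animal or day. Deviations of same-numbered libraries correlated at -0.08, 0.27, 0.18 and 0.03. Day 6 libraries 2 and 3 correlated most with the adult Kit-positive library of their own number. Day 6 libraries 1 and 4 correlated more with adult Kit-positive library 5 than with their own number. With the replicate block 3456 genes were higher and 4237 lower, of which 3142 and 3922 were also called without it, and Cyp26b1 (adjusted p = 0.026) and Dmrtb1 (adjusted p = 0.044) passed. Added after seeing the data, leaving out entries with identical counts gave 3354 higher and 4175 lower, and leaving out day 6 library 2 with adult Kit-positive library 5 gave 3189 and 4409. Limma voom moved by over 1.5 times Spry4 (6.35), Cd93 (5.68), Foxc2 (5.61), Nanos2 (3.88), Lhx1 (4.31), Insl3 (-4.96) and Aldh1a1 (1.79), besides genes with 0 or 1 count at day 6, and with sample quality weights also Dppa2 (3.72) and Cyp17a1 (-4.33). The replicate block called 7 replication genes lower and 10 mitotic genes higher, against 4 and 6. Of the other list counts, sample quality weights or the block moved those lower for insulin and cholesterol genes from 2 to 4, for DNA methylation, cadherin and glycolysis genes from 1 to 2, for X-linked genes from 3 to 5 and for Wnt genes from 5 to 2, and meiotic genes higher from 1 to 2. Depth limits genes near the floor of 3 counts.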
